A study of Ovis aries and Bos taurus with 6 samples.

Results

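The miRNAs described here are known from red blood cells (miR-486, miR-451 and miR-144), liver (miR-122 and miR-885) and striated muscle (miR-1, miR-133, miR-206 and miR-499). They were followed in extracellular vesicles (EVs) of sheep and cow milk. They were picked by name, 9 names in all. Cow rows were taken by their miRBase name, which gave 10 of 779 rows. Sheep rows were taken by the mature sequence they list over at least 17 bases, which gave 11 of 685 rows, of which only oar-miR-133 carries a miRBase name. The 11 sheep rows include the opposite arms miR-486-3p, miR-122-3p and miR-885-3p. No sheep row matched miR-451 or miR-144, so both were analysed in cow only. oar-miR-133 is called miR-133a here.

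A miRNA is a short RNA that guides a silencing protein to messenger RNAs, mostly by pairing through its seed, the bases 2 to 8. These miRNAs are made at very high levels in few cell types, and for that reason they are used in blood as signs of burst red cells, liver injury or muscle injury. In milk the bulk of the vesicles is thought to come from the mammary epithelium, which is not known for making them in quantity. Milk EVs are released by many cells at once, so more vesicles of a source and more of a miRNA per vesicle cannot be told apart in these data.

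The libraries came from milk of 3 Ordos fine wool sheep and 3 Holstein cows, all female and in mid lactation, with no treatment named. EVs were isolated with a precipitation kit, which does not select vesicles by their cell of origin, and libraries were made by adapter ligation. The cow libraries come from an earlier study of the same group, so differences of species, of breed and of study cannot be told apart. The labels number the libraries 1 to 3 in each species and give no date or batch, so a p-value here measures only the spread between these libraries. The deposited counts are reads per miRNA row. They are given below as CPM, the count per 1000000 miRNA counts of the library, from totals of 1073914 to 2078695 in sheep and 328527 to 556489 in cow. Where a library had 0 counts of a row, the level could be as high as 2.79 CPM in the shallowest of the sheep libraries and 9.13 CPM in the shallowest of the cow libraries. Sheep replicate 1 stood apart from the other sheep libraries: its largest row took 19.6% of its counts, against 38.0% and 63.6% in the others, and it held most of the counts of several miRNAs described below. Results that rest on it are given with and without it.

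The sequences listed for the sheep rows are shown because they are the basis of each name, with T for U as deposited, 5′ to 3′, and the seed in capitals. The seed GGAATGT is shared by miR-1 and miR-206 and by no other of the 685 sheep rows. The seeds of the other rows shown differ from each other.
miR-1: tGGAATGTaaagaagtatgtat
miR-206: tGGAATGTaaggaagtgtgt
miR-133a: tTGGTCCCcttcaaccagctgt
miR-133b: tTTGGTCCccttcaaccagctac
miR-499: tTAAGACTtgcagtgatgttt
miR-122: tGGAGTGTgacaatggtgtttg
miR-885: tCCATTACactaccctgcctct
miR-885-3p: aGGCAGCGgggtgtagtggat
miR-486: tCCTGTACtgagctgccccgagg
miR-486-3p: cGGGGCAGctcagtacaggac
Over the first 20 bases miR-1 and miR-206 differ at 2 positions, A11G and A17G, with the base of miR-1 first and positions counted from the 5′ end. miR-133a and miR-133b share a run of 20 bases. The listed miR-133a starts 1 base further along that run, so the seeds read from the listed starts are not the same letters. miR-486-3p shares 20 bases with the reverse complement of miR-486. The sources used here do not say whether counting used the strand. The rows of miR-486, miR-486-3p and miR-1 each name 2 predicted precursors, so their counts cannot be divided between the loci. In RefSeq's sheep annotation of the assembly ARS-UI_Ramb_v3.0 the nearest protein-coding genes to the precursor oar-mir-133 are SLCO4A1 and GATA5. Cow rows list no sequence.

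In sheep replicate 1 the summed rows of all 3 sources were high together, and in the other 2 sheep libraries each sum came to 0.614% or less. Each sum in sheep replicate 1 was mostly a single row. There miR-486 held 85723 of 86930 red cell counts, miR-122 held 77983 of 80416 liver counts and miR-1 held 28528 of 30139 muscle counts. The red cell rows took 7.83%, 0.0744% and 0.0708% of the miRNA counts of sheep replicates 1, 2 and 3, and 1.98%, 1.53% and 2.76% of cow replicates 1, 2 and 3. The liver rows took 7.24%, 0.220% and 0.614% in sheep and 0.106%, 0.0408% and 0.0637% in cow. The muscle rows took 2.71%, 0.0556% and 0.153% in sheep and 0.00335%, 0.00198% and 0.00542% in cow. Every sheep library thus held larger liver and muscle shares than every cow library. The red cell shares of the cow libraries fell between sheep replicate 1 and the other sheep libraries. These sums do not cover the same rows in both species. The red cell sum holds 2 rows in sheep and 3 in cow, where it includes miR-451 and miR-144, and the liver sum 4 in sheep and 2 in cow. Without sheep replicate 1 the mean sheep share was 0.0726% for the red cell rows, 0.417% for the liver rows and 0.104% for the muscle rows. All rows together took 17.8% of sheep replicate 1, and 0.350% and 0.837% of sheep replicates 2 and 3, against 2.09%, 1.57% and 2.82% of the cow libraries. The largest cow row, which has no conserved name, took 51.2% to 68.9% of a cow library, and the cow shares depend on it. With the largest row of each library left out of the totals, the mean share was 3.35% in sheep and 5.61% in cow for the red cell rows, 3.53% and 0.182% for the liver rows, and 1.26% and 0.00988% for the muscle rows, against 2.66% and 2.09%, 2.69% and 0.0700%, and 0.974% and 0.00358% with it.

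**Figure D1:**
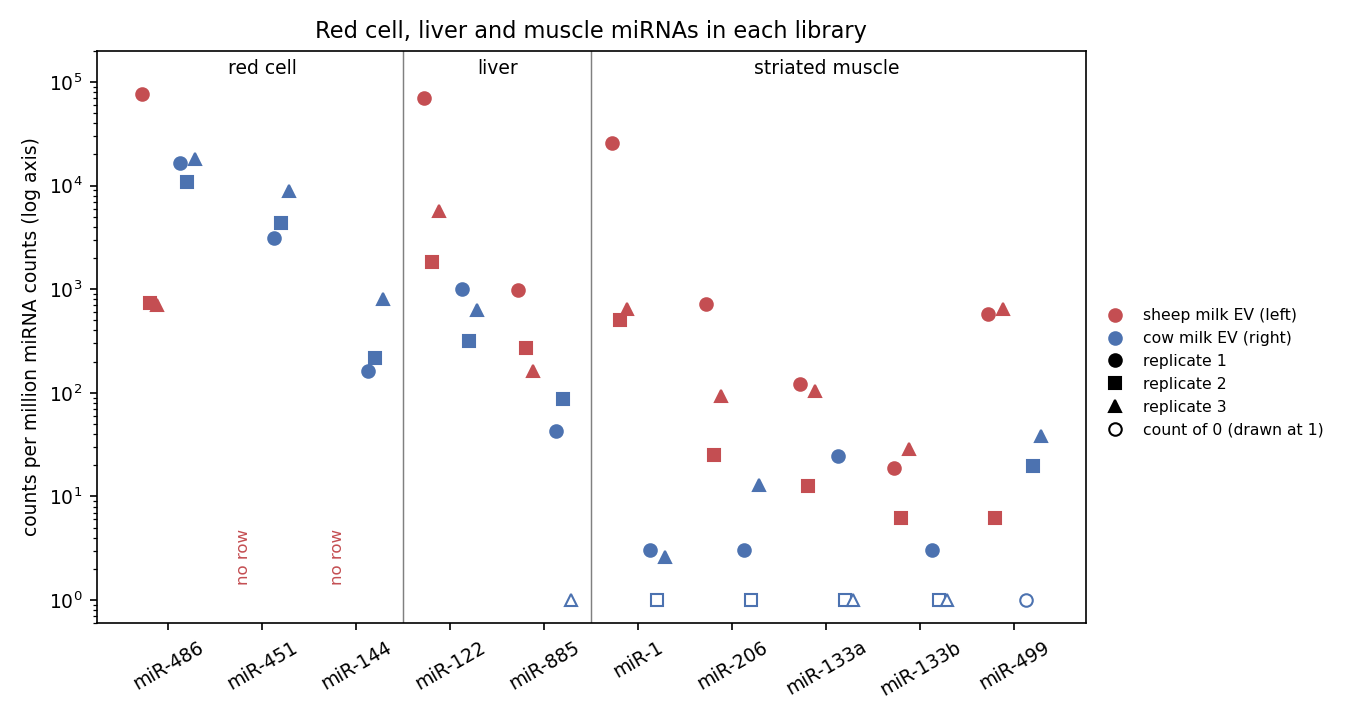
CPM (log axis) of each miRNA in each library, with sheep in red on the left and cow in blue on the right, one symbol per replicate number and open symbols at 1 for a count of 0. miR-486, miR-122, miR-1 and miR-206 have sheep replicate 1 far above the other sheep libraries, and miR-1 is nearly without counts in cow.

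miR-486, which is abundant in red cells and is also made in muscle from an intron of the ankyrin gene ANK1, differed widely between the sheep. It had 77184, 741 and 705 CPM in sheep replicates 1, 2 and 3, against 16531, 10773 and 17853 CPM in cow replicates 1, 2 and 3. It was the row of rank 3 in sheep replicate 1 and of ranks 53 and 75 in the others, and of ranks 8, 11 and 6 in cow. The highest sheep library was 109-fold above the lowest, and the highest cow library 1.66-fold above the lowest. The groups overlapped, with 1 sheep library above and 2 below all cow libraries. miR-486-3p, the other arm of the hairpin, was likewise held almost wholly by sheep replicate 1, with 1207, 5 and 3 counts in sheep replicates 1, 2 and 3. Reads of miR-486 outnumbered those of miR-486-3p by 71.0, 308 and 252 to 1 in sheep replicates 1, 2 and 3. There were 5 and 3 counts of miR-486-3p behind the last 2 of these ratios.

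miR-451, which matures without Dicer by the slicing protein AGO2 and is among the most abundant miRNAs of red cells, had 3120.0, 4311 and 8908 CPM in cow replicates 1, 2 and 3. miR-144, transcribed with miR-451 from a single cluster in the erythroid lineage, had 161, 219 and 797 CPM. Both were highest in cow replicate 3, at 2.40-fold the mean of the other cow libraries for miR-451 and 4.19-fold for miR-144. miR-486 stood at 1.31-fold there. The 3 red cell miRNAs therefore did not keep fixed ratios between cows. There were 19.3, 19.7 and 11.2 reads of miR-451 per read of miR-144, and 5.30, 2.50 and 2.00 reads of miR-486 per read of miR-451, in cow replicates 1, 2 and 3.

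Cow replicate 3 was also read against all cow rows with at least 100 counts in the other cow libraries, a filter that the library itself does not decide. Past 4-fold above the mean of the others there was 1 of the 4 miRNAs of these sources with that many counts (miR-486, miR-451, miR-144 and miR-122), against 0.769% of 130 rows in all and 1.15% of the 87 named ones. That one was miR-144, close to the limit at 2.06 on the log2 scale, where 4-fold is 2. On the deposited TPM it was at 1.78, under 4-fold, so the count was then 0 of the 4. Cow replicates 1 and 2 held 0 of the 4, against 2.34% and 0% of all rows and 0% and 0% of the named ones.

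In blood, red cell rupture is read from miR-451 against miR-23a, a miRNA that red cells hold little of. In cow milk EVs the ratio of miR-451 to miR-23a counts was 2.03, 2.45 and 11.7 in replicates 1, 2 and 3, or 1.02, 1.29 and 3.55 on the log2 scale. The ratio of miR-486 to miR-23a was 103, 0.867 and 0.545 in sheep replicates 1, 2 and 3, against 10.8, 6.12 and 23.5 in cow replicates 1, 2 and 3. Sheep replicate 1 again lay above, and the other sheep libraries below, every cow library. Read ratios of different miRNAs carry the bias of ligation and PCR, so they are compared between libraries only, and no threshold from blood was applied.

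miR-122, the dominant miRNA of hepatocytes and a regulator of cholesterol metabolism, was higher in every sheep library than in any cow library. It had 70215, 1843 and 5703 CPM in sheep replicates 1, 2 and 3, against 1014, 319.9 and 637 CPM in cow. Its arm miR-122-3p had 1 count in sheep replicate 1 and 0 in the others. miR-885, measured in serum as a marker of liver disease, had 989, 273 and 161 CPM in sheep and 42.6, 88.1 and 0 CPM in cow. These sheep values too lay above all cow values, with the lowest sheep library close to the highest cow library. miR-885-3p had 1201, 88.0 and 276 CPM in sheep replicates 1, 2 and 3. The balance of the arms was not fixed, at 0.823, 3.10 and 0.584 reads of miR-885 per read of miR-885-3p. Nor did the liver miRNAs keep step, at 71.0, 6.74 and 35.4 reads of miR-122 per read of miR-885 in sheep replicates 1, 2 and 3, and 23.8 and 3.63 in cow replicates 1 and 2.

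The muscle miRNAs fell into separate patterns among the sheep. miR-1, which promotes muscle differentiation and is made in heart and skeletal muscle, had 25686, 506 and 650.0 CPM in sheep replicates 1, 2 and 3, against 1, 0 and 1 counts in cow replicates 1, 2 and 3. miR-206, of the same seed and restricted to skeletal muscle, had 727, 25.0 and 93.1 CPM in sheep, against 1, 0 and 5 counts in cow. Both were highest in sheep replicate 1, with every sheep library above every cow library.

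miR-499, encoded in an intron of the myosin gene MYH7B and known from heart and slow muscle, had 582, 6.25 and 651 CPM in sheep, against 0, 19.8 and 38.7 CPM in cow. miR-133a, transcribed with miR-1 in mammals, had 123, 12.5 and 104 CPM in sheep, against 8, 0 and 0 counts in cow. miR-133b, transcribed with miR-206, had 18.9, 6.25 and 28.9 CPM in sheep, against 1, 0 and 0 counts in cow. By CPM these 3 miRNAs were higher in sheep replicates 1 and 3 than in sheep replicate 2, where miR-499 fell within the cow values. With factors for composition (TMM within the sheep table) sheep replicates 1 and 2 were nearly level for miR-133b. The log2 ratios of miR-133b to the mean of the others were then -0.75, -0.87 and 1.32 in sheep replicates 1, 2 and 3. In sheep replicate 2 miR-133a was then at -2.03 and miR-499 at -5.48. miR-133a overlapped between species in CPM, as cow replicate 1 had 24.4 CPM, and did not overlap on the deposited TPM scale.

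Of the CPM summed over the sheep libraries, replicate 1 held 98.2% for miR-486, 95.7% for miR-1, 90.3% for miR-122, 86.0% for miR-206 and 69.5% for miR-885. It held 51.4% for miR-133a, 47.0% for miR-499 and 35.0% for miR-133b, for which replicate 3 held 43.4%, 52.5% and 53.4%. miRNAs that share a transcript in muscle thus parted: reads of miR-1 per read of miR-133a numbered 208, 40.5 and 6.23 in sheep replicates 1, 2 and 3. Reads of miR-1 per read of miR-206 numbered 35.4, 20.2 and 6.98, and reads of miR-499 per read of miR-133a numbered 4.72 in sheep replicate 1 and 6.24 in sheep replicate 3, with 13 reads of miR-499 and 26 of miR-133a in sheep replicate 2. miR-133a and miR-133b rest on 137, 26 and 112 counts and on 21, 13 and 31 counts, so their ratios are the least precise.

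**Figure D2:**
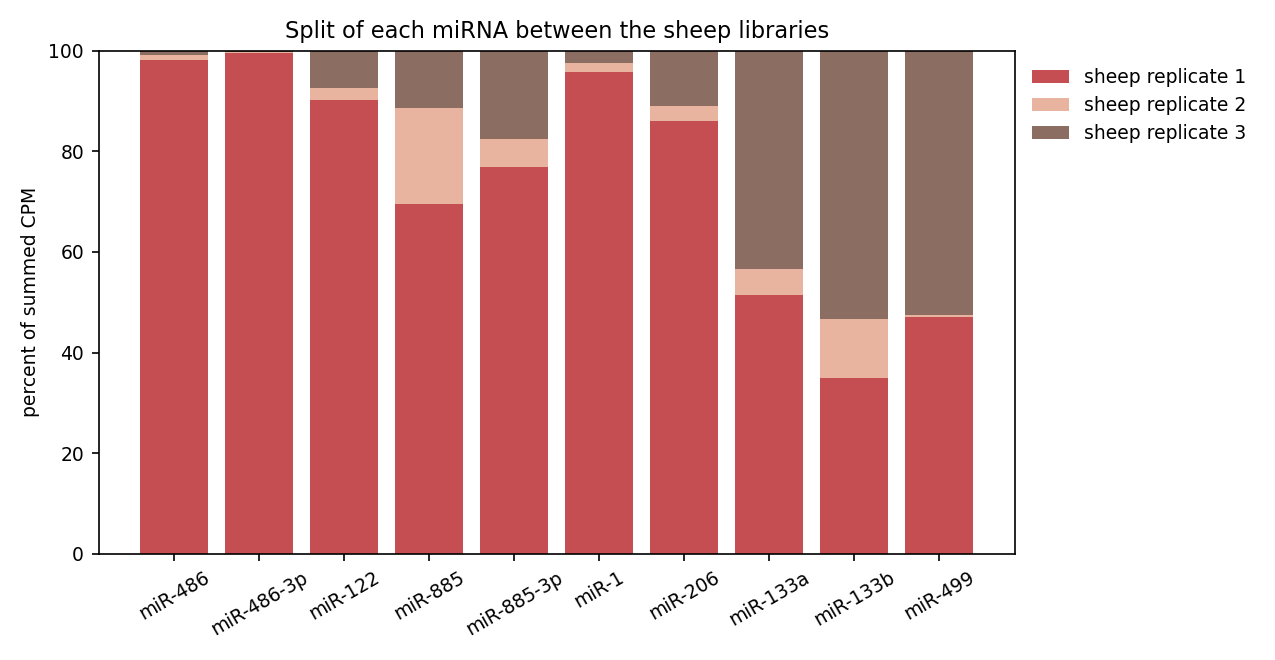
Percent of the CPM summed over the 3 sheep libraries that each library held, as stacked bars per miRNA. Replicate 1 held 98.2% for miR-486 and 95.7% for miR-1, whereas miR-499 and miR-133b had 52.5% and 53.4% in replicate 3.

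How far sheep replicate 1 stood out for these miRNAs was read against the sheep rows with at least 100 counts in sheep replicates 2 and 3 together, so that replicate 1 does not decide which rows enter. Of the red cell, liver and muscle miRNAs 8 rows had that many counts, and 6 of the 8 were past 4-fold above the mean of the other sheep libraries, against 14.2% of 239 rows in all and 12.8% of the 133 rows with a conserved name. The folds were 107 for miR-486, 44.4 for miR-1, 18.6 for miR-122, 12.3 for miR-206, 6.61 for miR-885-3p and 4.55 for miR-885. miR-133a at 2.11-fold and miR-499 at 1.77-fold lay under 4-fold, and were at 1.07 and 0.82 on the log2 scale. The median was 0.19 over all rows and 0.53 over the named ones. miR-486-3p, miR-122-3p and miR-133b had too few counts in sheep replicates 2 and 3 to enter. With the same filter on the other libraries, 0 of 9 rows of these miRNAs were past 4-fold in sheep replicate 2 and 0 of 9 in sheep replicate 3, against 0.709% and 7.28% of all rows and 1.44% and 6.52% of the named rows.

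miR-486 ranked 1 and miR-1 ranked 2 among the 239 rows, ahead of a row without a conserved name, and miR-122 ranked 6 and miR-206 ranked 9. Ranks 4 and 5 were miR-215, with 4595, 212 and 318 counts in sheep replicates 1, 2 and 3, and the lymphocyte miRNA miR-150, with 708, 64 and 39 counts. With factors for composition (TMM within the sheep table) in place of totals, the log2 ratio to the mean of the others was 5.57 for miR-486, 4.37 for miR-1, 3.28 for miR-122 and 2.70 for miR-206, against 6.74, 5.47, 4.22 and 3.61 by totals. For miR-885 it was 0.94 with TMM and 1.28 with totals that leave out the largest row, both under 4-fold, against 2.18 by totals. The 6 of 8 rows past 4-fold, which include both arms of the miR-885 hairpin, are thus a count by totals. The share over all rows beside it was also taken by totals only.

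**Figure D3:**
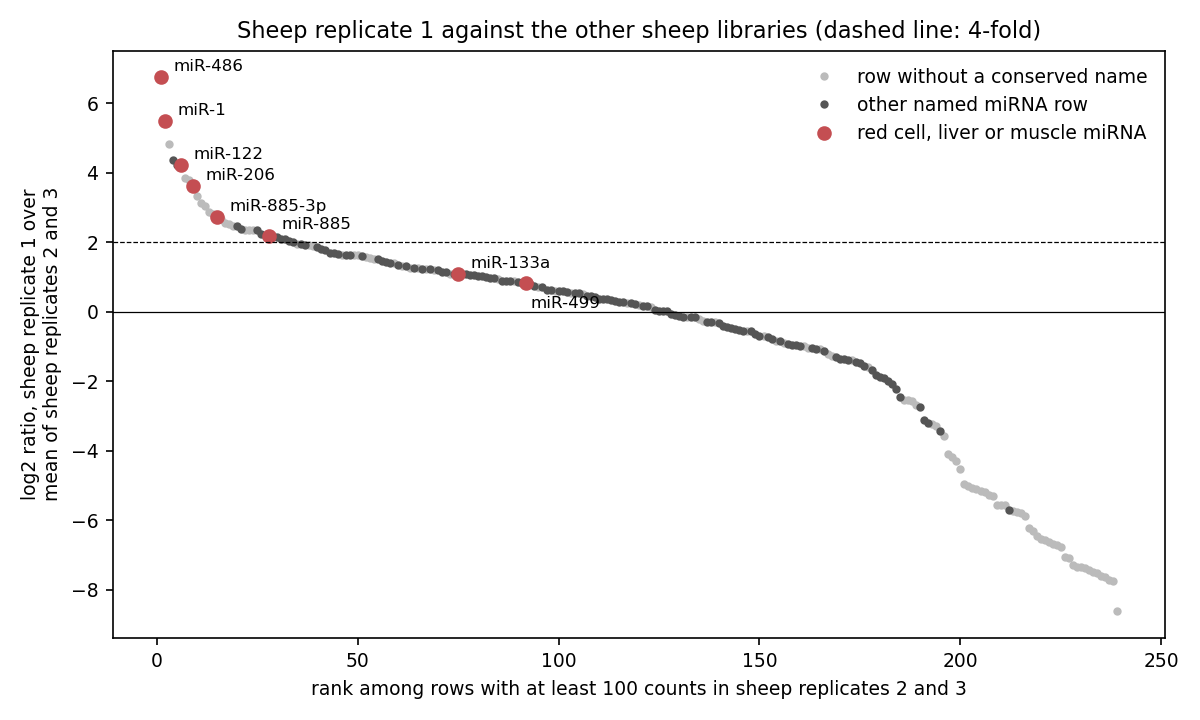
Log2 ratio of sheep replicate 1 over the mean of sheep replicates 2 and 3 for the 239 sheep rows with at least 100 counts in replicates 2 and 3 together, in order of the ratio, with red points for the red cell, liver and muscle miRNAs, dark points for other named rows and light points for rows without a conserved name. Of the 8 red points, 6 lie above the dashed line at 4-fold, and miR-133a and miR-499 lie below it.

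The rows most like these miRNAs across libraries were found by the largest difference between profiles of log2(CPM + 0.5), centred on their mean over the 3 libraries of a species. With 3 libraries this is a description only. In sheep miR-126-5p, known from endothelium, was nearest to miR-486, at 0.40, with 425, 7 and 2 counts in replicates 1, 2 and 3. miR-215, known from liver and intestine, was nearest to miR-122, at 0.09, followed by miR-206 at 0.36 and miR-374a at 0.56. The nearest named rows to miR-1 were miR-150 at 0.83 and miR-486 at 0.84. In cow miR-215 was again nearest to miR-122, at 0.16, followed by miR-1468 at 0.23. miR-192, of the same family as miR-215, was the nearest named row to miR-486, at 0.12. miR-185 at 0.09 and miR-146b at 0.18 were the nearest named rows to miR-451.

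The species were then compared in a single fit over all miRNAs joined between the tables, which tested 46 and called 20. With edgeR (quasi-likelihood, adjusted by Benjamini-Hochberg), 4 of the 7 red cell, liver and muscle miRNAs tested were called, all higher in sheep, against 43.5% of all tested miRNAs called, 23.9% higher and 19.6% lower in sheep. miR-1 and miR-206 passed the filter on low counts through the sheep libraries alone, so they could only be called higher in sheep. miR-133b, the eighth joined, had too few counts to be tested with all libraries. It entered the fits without cow replicate 1, 2 or 3, in which 2, 1 and 2 of 8 were called, against 34.7%, 30.6% and 36.7% of all 49 miRNAs tested. The median log2 fold change of the 46 was 0.38. The log2 fold change was 4.16 ± 1.01 for miR-122 (SE from edgeR, adjusted p = 0.00277), 4.78 ± 1.58 for miR-206 (adjusted p = 0.0193) and 3.69 ± 1.42 for miR-499 (adjusted p = 0.0447).

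miR-1 had an edgeR adjusted p of 7.96e-05. As cow held 2 counts of it in all, its size is given as a ratio of summed counts per summed totals, 4519.6-fold higher in sheep with a 95% counting interval of 1251 to 37321. Without sheep replicate 1 that ratio was 353, with an interval of 97.6 to 2919. miR-885 was at 2.50 ± 1.20 (edgeR adjusted p = 0.109) and miR-133a at 2.48 ± 1.91 (adjusted p = 0.288), which did not pass the threshold of 0.05. miR-486 was at -0.38 ± 1.12 (adjusted p = 0.769), and its fold change was 0.80 when the totals of the whole tables were used without factors.

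The call of miR-486 changed when sheep replicate 1 was left out. When it was left out, edgeR called 5 of the 7 miRNAs, 4 higher and 1 lower in sheep, against 56.8% of all 44 tested, 36.4% higher and 20.5% lower. miR-486 was then lower in sheep, at -4.11 ± 0.57 on the log2 scale (edgeR adjusted p = 3.34e-10), and without sheep replicate 2 or 3 it stood at 0.17 and 0.18. The remaining miR-486 values, 741 and 705 CPM in sheep against 10773 to 17853 CPM in cow, did not overlap. miR-122 stayed higher in sheep without sheep replicate 1, by 2.56 ± 0.53 (adjusted p = 1.19e-05), and was no longer called without cow replicate 2 (3.83, adjusted p = 0.0611) or cow replicate 3 (4.03, adjusted p = 0.0583). miR-885 was called without sheep replicate 1 (2.84, adjusted p = 0.0465) or sheep replicate 3 (2.86, adjusted p = 0.0264). miR-1 was called whichever library was left out, at edgeR adjusted p from 2.68e-14 to 0.0113. It needed the sheep libraries to pass the filter on low counts, so it could only be called higher in sheep.

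The calls of miR-206 and miR-499 were less firm. miR-206 was not called by edgeR without sheep replicate 1 (3.50, adjusted p = 0.156), cow replicate 1 (4.62, adjusted p = 0.113) or cow replicate 2 (4.14, adjusted p = 0.0802). miR-499 was not called without sheep replicate 3 (2.80, adjusted p = 0.106) or without cow replicate 1, 2 or 3 (3.15, 3.78 and 4.42, adjusted p = 0.185, 0.172 and 0.122). When more sheep rows were joined by the sequence they list (the wider join), which tested 129 miRNAs, miR-122 (3.42, adjusted p = 0.0120) and miR-1 (adjusted p = 2.54e-04) were called, both higher in sheep, against 51.9% of all called and 30.2% called higher in sheep. miR-206 (3.79, adjusted p = 0.0662) and miR-499 (2.64, adjusted p = 0.168) were not called there. In the wider join too, miR-1 passed the filter on low counts through the sheep libraries alone.

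**Figure D4:**
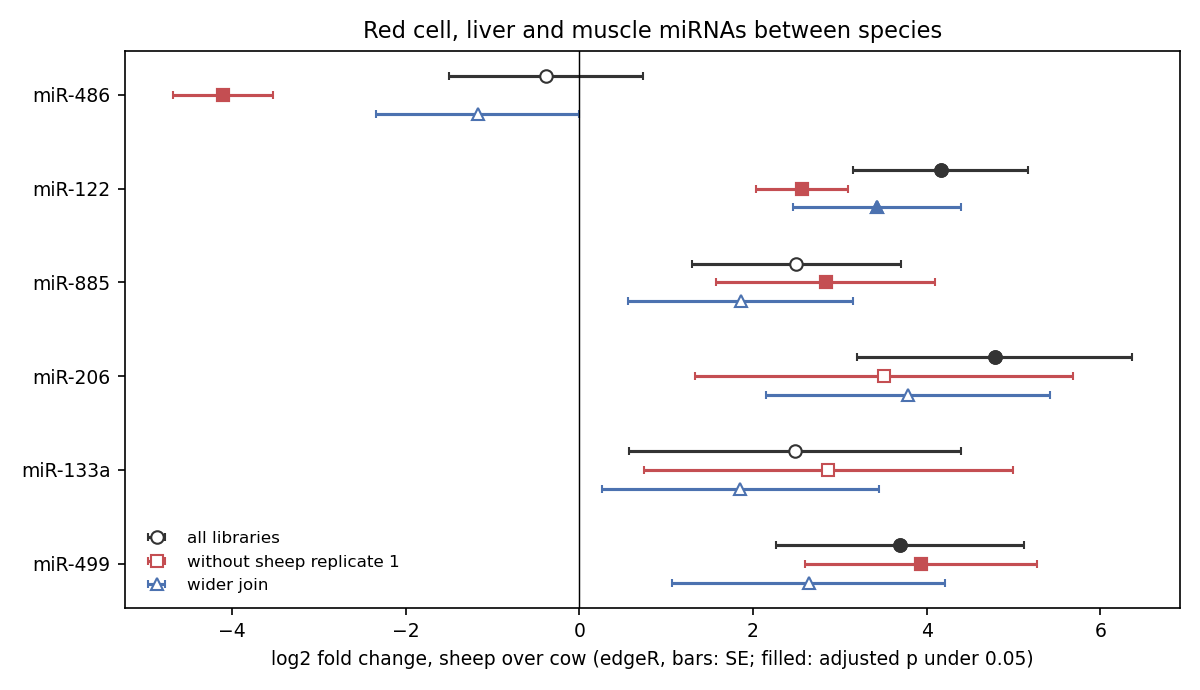
Log2 fold change of sheep over cow with its standard error from edgeR, for all libraries (circles), without sheep replicate 1 (squares) and in the wider join (triangles), with filled symbols for an adjusted p under 0.05. miR-1 is left out because cow held 2 counts of it, and miR-486 moves to -4.11 without sheep replicate 1 whereas miR-122 stays above 0.

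Other miRNAs linked to the same sources went in mixed directions. Of 5 further red cell miRNAs, 3 were tested in the wider join by edgeR: miR-92a was higher in sheep (1.53, adjusted p = 0.0188), miR-25 was lower (-6.75, adjusted p = 0.000433), and miR-16b was at -1.67 (adjusted p = 0.232). miR-23a, the reference of the blood ratio, was lower in sheep (-1.86, adjusted p = 0.0197), and without sheep replicate 1 it was at -0.76 (adjusted p = 0.285). In all, 30.2% of the 129 miRNAs were called higher and 21.7% lower. The rows of these further red cell miRNAs took 5.87%, 2.14% and 2.84% of sheep replicates 1, 2 and 3, nearly all of it miR-92a. In the cow libraries they took 0.465%, 0.663% and 0.497%. On the log2 scale against the mean of the other sheep libraries, the rows of miR-92a were at 1.93 and 0.17 in sheep replicate 1. There miR-16b was at -0.15 and miR-25 at -0.29, while miR-363, on 10, 2 and 2 counts, was at 2.31.

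Of 4 further liver miRNAs, 2 were tested. miR-192 was lower in sheep (-3.34, edgeR adjusted p = 0.00106), with 1269, 228 and 363 CPM in sheep and 1896, 1402 and 2332 CPM in cow, which is the opposite direction to miR-122. miR-194, transcribed with miR-192, was at 0.31 (adjusted p = 0.847). Within sheep these rows were highest in replicate 1 by CPM, as miR-122 was. In sheep replicates 1, 2 and 3 miR-194 had 236, 142 and 12.1 CPM. There miR-455-3p had 26.1, 3.37 and 2.79 CPM and miR-455-5p 36.0, 4.81 and 8.38 CPM. As miR-194 had 262, 295 and 13 counts, its order between replicates 1 and 2 depends on the totals used. The rows of the further liver miRNAs together took 0.157%, 0.0378% and 0.0386% of the sheep libraries and 0.196%, 0.146% and 0.236% of the cow libraries. Of 3 further muscle miRNAs only miR-378, also known from fat and mitochondria-rich tissue, was tested, at -0.28 (adjusted p = 0.847). It had 38.7, 74.1 and 235 CPM in sheep replicates 1, 2 and 3, and 88.3, 39.5 and 38.7 CPM in cow. In sheep miR-378 was thus lowest in replicate 1, whereas miR-95, on 7, 3 and 4 counts, was highest there with 6.30, 1.44 and 3.72 CPM. Neither table held a row of miR-208, the heart miRNA of the myosin genes.

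Markers of other cells also differed between the sheep libraries. Mammary epithelial miRNAs (6 of 7 with a sheep row, 7 of 7 with a cow row) took 25.1%, 64.3% and 40.7% of sheep replicates 1, 2 and 3, against 0.115% to 0.235% of the cow libraries. The endothelial miR-126 took 0.477%, 0.0502% and 0.123% in sheep and 0.173% to 0.279% in cow, and stromal and smooth muscle miRNAs (3 of 3) took 0.710%, 0.168% and 0.233% in sheep and 0.0545% to 0.125% in cow. Leukocyte miRNAs (6 of 6) took 1.54%, 1.28% and 2.23% in sheep and 0.463% to 0.900% in cow, and platelet miRNAs (3 of 3) 0.880%, 0.512% and 1.05% in sheep and 0.218% to 0.341% in cow. The sums for epithelium, leukocytes and platelets each held a large part from a miRNA that was not highest in sheep replicate 1. Among epithelial miRNAs miR-148a was lowest in sheep replicate 1, at -1.37 on the log2 scale against the mean of the other sheep libraries, while miR-200b, miR-200c, miR-141 and miR-375 (0.62 to 1.81) and miR-429 (7.36, on 261, 0 and 2 counts) were above that mean. Among leukocyte miRNAs miR-146a was at -0.78, while the rows of miR-142, miR-150, miR-155, miR-223 and miR-342 were at 1.68 to 4.23. The platelet list shares miR-223 and miR-126 with other lists, and 3 of 3 rows of miR-24-3p were below the mean of the others in sheep replicate 1. The endothelial and stromal rows were above it. They were at 2.34 and 6.94 for the arms of miR-126, 1.95 for miR-143, 2.51 for miR-145 and 0.74 for miR-199a-3p. The median in sheep replicate 1 was 0.53 over the 133 named rows with enough counts in the other sheep libraries. Of these 133, miR-200c ranked 53, miR-199a-3p 59 and miR-141 62, so they lay near the median. Among these markers, miR-429 was at 0 in sheep replicate 2 and cow replicate 3, miR-200b at 0 in cow replicates 1 and 3, and miR-142-3p at 0 in cow replicates 1 and 2. The part of these cells in the levels of the red cell, liver and muscle miRNAs was not tested.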

How the data were processed

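In each species' table the deposited counts are whole reads per row. The deposited TPM values equal the counts over 1 constant per library (9859791 to 16091056), a number whose meaning is not stated in the sources used here. The tools named are cutadapt 1.14 and Bowtie, per the submitters' processing notes. For the genome build, the release of miRBase and the counter, nothing is given in the sources used here. Sheep miRNA counts totalled 1110632, 2078695 and 1073914 and cow counts 328527, 556489 and 387723, with 0 pairs of identical libraries. Intervals (95%) and the floor of 3 counts cover counting error only.

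Tables were joined by miRBase name (42 names) plus the 8 miRNAs of these sources with a row in both. Joining further sheep rows by reference sequences was planned, but no table of mature sequences was used here. In its place 132 sheep rows were given 115 conserved names from the sequence they list (at least 17 matching bases, offset of at most 2, length difference of at most 4). This wider join of 147 names was added after the data were seen and cannot be done for cow rows. The main join holds 52.8% to 72.8% of sheep counts and 9.31% to 18.2% of cow counts.

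The test was edgeR 4.0.16's quasi-likelihood one on counts (filterByExpr, TMM factors, Benjamini-Hochberg over all miRNAs tested, threshold 0.05). Standard errors were derived from the F statistic and the fold change. The test was also run on simulated data, in which 10 of 46 rows changed by 3 on the log2 scale. It recovered 97.5% of them, with 0.650 false calls per set. The simulated spread was fixed and not taken from these libraries, so this gives no error rate for them. Ratios of a library over the mean of the others used CPM + 0.5 on the log2 scale, and were read against rows with at least 100 counts in those others, a filter added after the data were seen. Folds printed beside them are of CPM itself. The alternatives were DESeq2 1.42.0, limma 3.58.1 on log2(TPM + 1) and log2(TPM + 10), other factors, totals and filters, a replicate block, and each library left out. All miRNAs of the rule are named. Others are named if on a marker list or among the 3 rows with profiles nearest to miR-486, miR-122 or miR-1 in sheep and miR-486, miR-451 or miR-122 in cow. The miRNAs and lists were chosen with earlier results of these data known.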

Additional observations from a re-analysis of the deposited data

How the results depend on the processing

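Of the 7 red cell, liver and muscle miRNAs tested, 4 were called with all libraries, 1 to 5 with a library left out (1 of 8 without cow replicate 2, 2 of 8 without cow replicate 1 or 3), 1 without normalization factors, 2 with upper-quartile factors, 2 in the wider join and 7 of 8 with limma on log2(TPM + 1). Against the main fit, the log2 fold changes of the tested miRNAs shifted by a median of -1.42 with no factors. The median shift was 0.70 with totals of the whole tables and 2.12 with limma on log2(TPM + 1). Over all miRNAs tested 20 were called, 15 to 25 with a library left out, 67 of 129 in the wider join and 68 there without sheep replicate 1. The split of higher against lower calls in sheep was 11 to 9 with all libraries, 6 to 13 without factors, 13 to 7 with totals of the whole tables and 24 to 5 with limma on log2(TPM + 1).

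miR-486 was at -4.11 without sheep replicate 1 and changed sign with totals of the whole tables (0.80) and without sheep replicate 2 (0.17) or 3 (0.18). The ratio of sheep replicate 1 to the other sheep libraries for miR-133b turned to -0.43 without the largest row and to -0.75 with TMM within the species. That of cow replicate 3 for miR-122 turned to 0.01 on TPM, 0.39 without the largest row and 0.14 with TMM. The cause was not tested. miR-1 was called in 15 of 15 alternatives with an adjusted p, miR-122 in 13 of 16, miR-206 in 8 of 16 and miR-499 in 6 of 16. DESeq2 is not among the 15 for miR-1, as it gave a log2 fold change of 11.36 but no p-value. miR-885, not called with all libraries, was called in 6 of 16.

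Deviations of same-numbered sheep and cow libraries correlated at 0.02, 0.15 and 0.00, so the numbers do not pair them. With the replicate number as a block 5 of these miRNAs were called, 4 higher and 1 lower, and 21 of all tested. The one lower was miR-486, at -3.10 (edgeR adjusted p = 0.0354). The planned join without further names is the main join, so it gave no separate value. The muscle miRNAs rest on 0 to 15 counts per cow library and miR-885 on 0 to 49, so their fold changes are imprecise.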
